A study of Mus musculus with 20 samples.

Results

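The genes described here are 8 markers of the enteric nervous system, out of 35204 genes in the gene-level table of estimated counts: Elavl4 and Uchl1, made by neurons in general, the receptor gene Ret, the transmitter genes Vip, Nos1 and Chat, and the glial genes Sox10 and S100b. They were chosen by name from their known cell types, with earlier results of these data known. All 8 passed the filter of 0.5 CPM (estimated counts scaled to a common library size by the TMM method) in at least 1 mouse, as did 16306 genes in all, and 6 of the 8 reached 0.5 CPM in all 20 mice. The study asked how tryptophan in the diet shapes gene expression in the ileum, and whether the response needs the gut microbiota. C57Bl6 mice, young adult females, received a control diet (CD) or a tryptophan-deficient diet (TDD) for 3 weeks and either kept their specific-pathogen-free (SPF) microbiota or drank ampicillin, vancomycin, gentamycin, metronidazole and neomycin in sweetened water (ABX), which gave 4 groups of 5 mice, CD, TDD, CD+ABX and TDD+ABX. None of the groups carried a genetic change, and all mice had been placed on the control amino acid diet before the groups were formed. RNA was taken from a snippet of the opened and washed ileal wall, selected for poly-A tails and sequenced, so each library mixes epithelium, lamina propria, muscle and the nerve plexuses.

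Enteric neurons sit in a plexus between the muscle layers and in another beneath the epithelium, and enteric glia surround them. The receptor tyrosine kinase RET, bound by GDNF family ligands, drives the colonisation of the gut by neural crest cells and stays active in mature neurons. Nitric oxide made by NOS1 and the peptide VIP relax gut muscle, VIP also drives epithelial secretion, and acetylcholine made by CHAT excites muscle and secretion. In bulk tissue, fewer cells of a type and less RNA per cell cannot be told apart. Several of these genes have other sources: tuft cells of the epithelium make Chat, and group 3 innate lymphoid cells make Ret.

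The libraries held between 36676963 and 58662617 estimated counts, and the 8 genes were sparse in them. The counts of a gene in 1 mouse ran from 13 for S100b to 1107 for Vip. Epithelial genes were abundant in every mouse (Vil1 averaged 3726 CPM), whereas the ileal bile acid genes Fabp6 and Slc10a2 reached at most 3.91 and 8.80 CPM in SPF mice, against up to 144 and 86.0 CPM in ABX mice. CD mice 2 and 5 stood apart among the CD mice in the level of smooth muscle genes: their 14 smooth muscle genes summed to 4892 and 1178 CPM, while the other CD mice lay between 2671 and 3103 CPM.

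Compared per length, in TPM (transcript abundance scaled by length and library size), Vip was the most abundant of the 8 genes, with a mean of 9.31 ± 4.18 TPM (SD over 20 mice), followed by Uchl1 with 8.54 ± 3.02 TPM. Ret stood below them at 2.64 ± 0.574 TPM and Elavl4 at 1.05 ± 0.427 TPM. The glial genes were low, at 0.882 ± 0.369 TPM for S100b and 0.685 ± 0.264 TPM for Sox10. Chat and Nos1 closed the order at 0.567 ± 0.210 and 0.554 ± 0.295 TPM. Uchl1 exceeded Ret, and Ret exceeded Elavl4, in 20 of 20 mice, although their ranges over all mice overlapped. Neighbours elsewhere in the order were less clearly apart. Vip exceeded Uchl1 in 10 of 20 mice, Elavl4 exceeded S100b in 12, S100b exceeded Sox10 in 15, Sox10 exceeded Chat in 14 and Chat exceeded Nos1 in 9, all with overlapping ranges.

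Vip, on chromosome 10 (GRCm38, 5639218 to 5647617, plus strand), was the member with the clearest difference, a lower level with antibiotics on the control diet. Its promoter is shown because of that difference, and that of Chat, on chromosome 14 (32408203 to 32465989, minus strand), because Chat moved the other way. Both sequences are RefSeq's for GRCm38.p6, from 250 bases before to 50 bases after the start, at chr10:5638968-5639267 on the plus strand and chr14:32465860-32466159 on the minus strand. Capitals mark 3 motifs searched on both strands: TATAAA (the TATA box), TGACGTC (most of a cyclic AMP response element, added after the Vip sequence was seen) and CAGCTG (an E-box read by neurogenic factors).
Vip: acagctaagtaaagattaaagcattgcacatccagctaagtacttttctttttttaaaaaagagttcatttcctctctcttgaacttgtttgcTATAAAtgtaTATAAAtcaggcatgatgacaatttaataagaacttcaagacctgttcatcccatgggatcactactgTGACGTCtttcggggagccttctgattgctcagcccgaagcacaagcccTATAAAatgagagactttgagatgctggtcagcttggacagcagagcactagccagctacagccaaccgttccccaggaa
Chat: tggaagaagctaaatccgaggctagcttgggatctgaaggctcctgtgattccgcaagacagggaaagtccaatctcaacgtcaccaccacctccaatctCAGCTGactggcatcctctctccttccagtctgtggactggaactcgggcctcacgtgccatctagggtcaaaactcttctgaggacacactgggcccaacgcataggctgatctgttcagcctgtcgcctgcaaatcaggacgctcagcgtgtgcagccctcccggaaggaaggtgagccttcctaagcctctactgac
The Vip window held TATAAA 3 times, the last starting 30 bases before the gene start, and TGACGTC once. The Chat window held CAGCTG once and neither of the others. Among 32851 RefSeq promoters of the same length, 13.6% held TATAAA, 3.21% TGACGTC and 16.3% CAGCTG. The matches describe the letters only.

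Vip in CD mice 1 to 5 measured 9.86, 25.7, 11.5, 12.5 and 11 CPM. In CD+ABX mice it measured 9.08, 8.25, 8.39, 8.35 and 5.79 CPM. Every CD mouse lay above every CD+ABX mouse, and CD mouse 2 lay far above the other CD mice. The fitted difference was -0.83 on the log2 scale (SE 0.242), a level 1.77-fold lower with antibiotics (edgeR's quasi-likelihood test, Benjamini-Hochberg adjusted p = 0.0307 over all genes tested). Vip was the 1 member of 8 with an adjusted p under 0.05 in this comparison and the 1 member whose groups did not overlap, where 12.6% and 9.74% of all genes tested did so. None of the 8 was called, which also required a 2-fold change, against 2.25% of all genes.

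CD mouse 2 carried part of the size of this difference. Without it, the Vip difference was -0.49 with an edgeR adjusted p of 0.0736. Leaving out any 1 of CD+ABX mice 2 to 5 also took the adjusted p above 0.05, to at most 0.08, with the difference between -0.73 and -0.84. Smooth muscle genes did not move the same way: 13 of 14 were higher in CD+ABX than in CD mice, none with an adjusted p under 0.05, and their summed level was 2097 to 4011 CPM in CD+ABX mice and 1178 to 4892 CPM in CD mice. With the mean of those genes as a covariate, the Vip difference was -0.94 (edgeR adjusted p = 0.00133, where 15.2% of all genes were under 0.05), and with the covariate but without CD mouse 2 it was -0.70 (edgeR adjusted p = 0.0042, where 17.6% of all genes were under 0.05).

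On the deficient diet, Vip measured 15.4, 10.6, 9.28, 8.56 and 11.2 CPM in TDD mice and 6.16, 7.52, 6.10, 11.3 and 7.61 CPM in TDD+ABX mice. Here 4 of the 5 TDD+ABX mice lay below all TDD mice, while mouse 4 lay among them. The fitted difference was -0.50 (95% interval -1.01 to 0.0026), with an edgeR adjusted p of 0.166. With the smooth muscle covariate it was -0.44 with an edgeR adjusted p of 0.0704, and with the covariate but without CD mouse 2 it was -0.45 with 0.0234, where 21.1% of all genes were under 0.05. Diet itself gave Vip differences of -0.36 in SPF mice (95% interval -0.87 to 0.14) and -0.04 in ABX mice (-0.55 to 0.47), and without CD mouse 2 the difference in SPF mice was -0.038. The difference between the antibiotic effects on the 2 diets was 0.32 (95% interval -0.39 to 1.04) and was not distinguishable from 0. The antibiotic comparison on each diet and the diet comparisons share groups, so their values are not independent of each other. Almost all Vip TPM, 97.2% to 98.5% on average in the 4 groups, came from the transcript Vip-201.

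**Figure D1:**
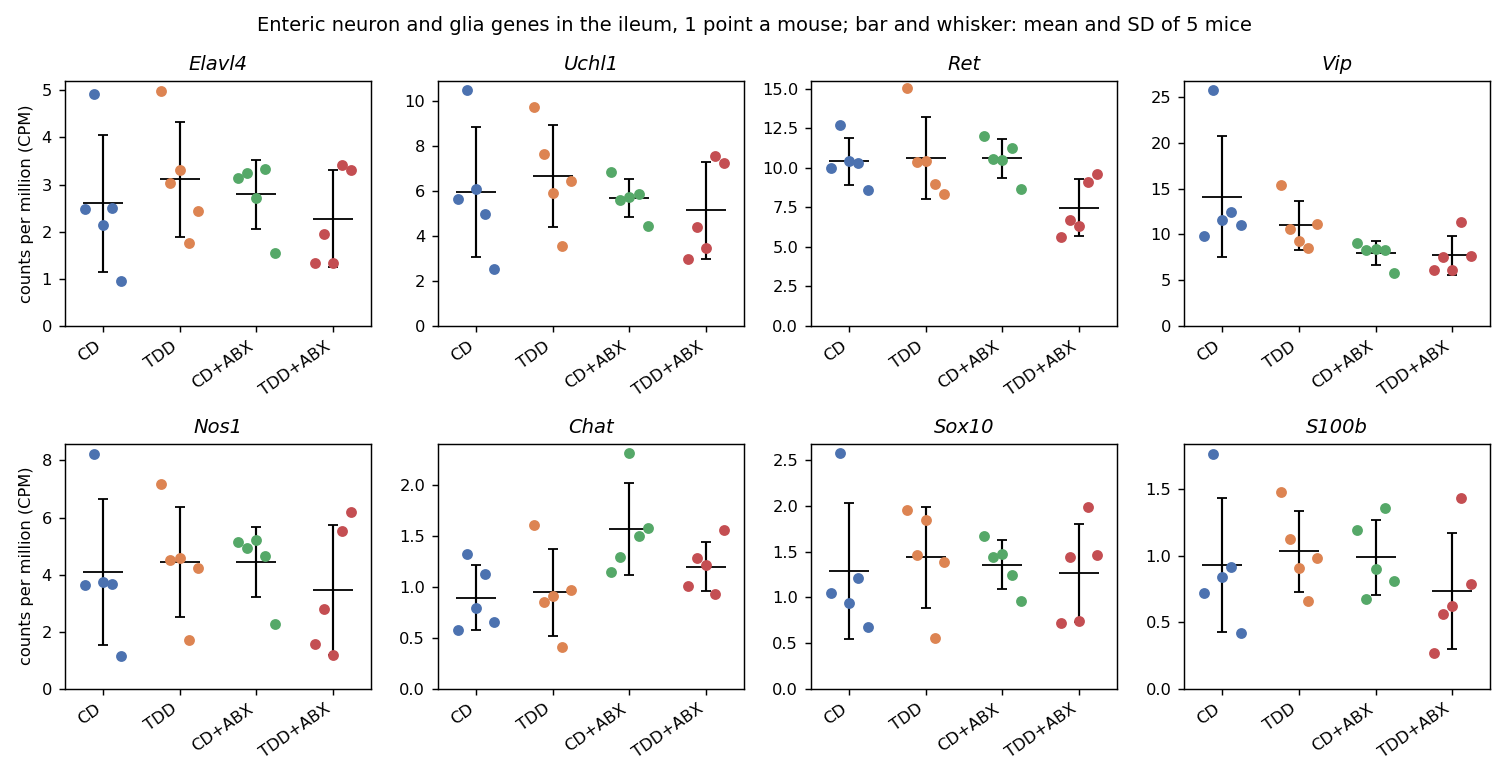
CPM of each of the 8 genes (linear axes from 0) in the 5 mice of each group, 1 point a mouse in the order of the mouse numbers, with the mean and SD as bar and whisker. Vip in the CD+ABX mice, 5.79 to 9.08 CPM, lies below every CD mouse, and CD mouse 2 is the highest CD mouse in all 8 panels.

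Nos1 makes nitric oxide in the inhibitory motor neurons, many of which also hold VIP. It measured 3.64, 8.23, 3.75, 3.67 and 1.16 CPM in CD mice and 7.18, 4.51, 4.60, 1.71 and 4.25 CPM in TDD mice. In CD+ABX mice it measured 5.14, 4.94, 5.20, 4.65 and 2.26 CPM, and in TDD+ABX mice 1.57, 2.80, 1.18, 5.51 and 6.20 CPM. The 4 groups overlapped throughout, and CD mouse 2 lay 7.11-fold above CD mouse 5, the widest range among the 8 genes. No comparison gave Nos1 an adjusted p under 0.05: its differences ran from -0.37 with antibiotics on TDD to 0.12 with diet in SPF mice. The interval on each reached about 1 log2 unit to either side (for diet in SPF mice, -0.89 to 1.13). In this fit, without the smooth muscle covariate, a change of under 2-fold was therefore not detectable for Nos1. With the covariate, the antibiotic difference on TDD was -0.30 (SE 0.102, edgeR adjusted p = 0.0488), where 17.3% of all genes were under 0.05. The transcript Nos1-206, of 10123 bases, gave 93.4% of its TPM on average.

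Chat, which makes acetylcholine, had the largest positive difference of the 8 genes with antibiotics. It measured 0.578, 1.33, 0.798, 1.12 and 0.652 CPM in CD mice and 1.15, 1.29, 2.31, 1.5 and 1.58 CPM in CD+ABX mice. Only CD mouse 2 reached into the range of the CD+ABX mice, of which mouse 3 was the highest. The difference was 0.81 (SE 0.290, 95% interval 0.20 to 1.41), or 1.75-fold, and edgeR gave an adjusted p of 0.0747, above 0.05. DESeq2 gave an adjusted p of 0.0403, and edgeR without CD mouse 2 gave a difference of 0.99 with an adjusted p of 0.0317. Chat passed in 3 of 20 edgeR fits that left out 1 mouse, and without CD+ABX mouse 3 the difference was 0.63 with an adjusted p of 0.2. It did not pass with limma-voom (adjusted p = 0.0572).

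On the deficient diet Chat measured 1.61, 0.848, 0.911, 0.413 and 0.968 CPM in TDD mice and 1.01, 1.28, 1.22, 0.935 and 1.56 CPM in TDD+ABX mice. The 2 groups overlapped, with a difference of 0.33 (95% interval -0.27 to 0.94). Most tuft cell genes moved in the same direction as Chat: of 7 tested from the tuft list, 6 were higher in CD+ABX than in CD mice with an edgeR adjusted p under 0.05. Among them were Pou2f3, the tuft cell transcription factor, by 0.87, and Trpm5, a taste channel, by 0.86. The other 1 tested, Ptgs1, had a negative difference and did not pass, although it had the highest mean level of the list (25.55 CPM). Of all 16306 genes tested, 857 passed as higher in that comparison. The summed level of the list was 78.4 to 94.9 CPM in CD, 69.2 to 84.6 in TDD, 96.9 to 174 in CD+ABX and 79.6 to 124 in TDD+ABX mice, and CD+ABX mouse 3 was the highest in both the list and Chat. The other genes of acetylcholine handling in neurons, the transporters Slc18a3 and Slc5a7, averaged 0.443 and 1.37 CPM in CD and 0.583 and 1.25 CPM in CD+ABX mice. Whether tuft cells contributed to the Chat values was not tested. Among the Chat transcripts, Chat-201 gave 87.8% of the TPM on average. Chat-205, annotated as a retained intron, gave a mean of 16.4% ± 5.36 (SD, n = 5) in TDD mice against 2.25% ± 2.34 in CD mice. These Chat-205 levels were under 0.12 TPM, and the difference was not tested.

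Ret, on chromosome 6 (118151745 to 118197718, minus strand), was the second member with an adjusted p under 0.05, on the deficient diet. It measured 15, 10.4, 10.4, 9.0 and 8.34 CPM in TDD mice and 5.62, 6.70, 6.32, 9.13 and 9.64 CPM in TDD+ABX mice. TDD+ABX mice 4 and 5 lay within the TDD range and mice 1 to 3 below it. The difference was -0.51 (SE 0.165), 1.42-fold lower with antibiotics, with an edgeR adjusted p of 0.0434, again under the 2-fold limit. Among all genes 15.4% had an adjusted p under 0.05 in this comparison, and 1.63% were called, against 1 and 0 of the 8 members. The adjusted p stayed under 0.05 in 8 of 20 fits that left out 1 mouse, and without TDD mouse 1 the difference was -0.35 with an adjusted p of 0.124.

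The diet comparison in ABX mice gave Ret a similar value, -0.50 (95% interval -0.85 to -0.16), with an unadjusted p of 0.00652 and an edgeR adjusted p of 0.139. It uses the same TDD+ABX mice. Ret measured 10.0, 12.7, 10.4, 10.3 and 8.61 CPM in CD mice and 12.0, 10.5, 10.5, 11.2 and 8.67 CPM in CD+ABX mice, so that 3 of the 5 TDD+ABX mice lay below all mice of the other 3 groups. In SPF mice the diet difference was 0.03 (95% interval -0.31 to 0.37) and the antibiotic difference on CD was 0.02 (-0.32 to 0.37), the narrowest intervals of the 8 genes. The difference of differences for Ret was -0.53 (95% interval -1.02 to -0.04), with an unadjusted p of 0.0338 and an edgeR adjusted p of 0.5. Smooth muscle genes were low in TDD+ABX mice 1 and 3, at 1404 and 1395 CPM, and high in mice 4 and 5, at 4011 and 3956 CPM, which were also the mice with the 2 lowest and the 2 highest Ret levels of that group. With the smooth muscle covariate, the antibiotic difference of Ret on TDD was -0.46 with an edgeR adjusted p of 0.00573, where 17.3% of all genes were under 0.05. Innate lymphoid genes, the other source, summed to 86.9 to 104 CPM in TDD and 73.8 to 107 CPM in TDD+ABX mice, and all 5 tested had negative differences with antibiotics on TDD, with a median of -0.51 beside the -0.51 of Ret. Of the 5, the cytokine receptor gene Il7r passed (-0.73, edgeR adjusted p = 0.0103). The medians of the innate lymphoid genes were 0.41 for diet in SPF mice, -0.05 for diet in ABX mice and -0.11 for antibiotics on CD. Ret differed there by 0.03, -0.50 and 0.02. The part of these cells in the Ret values was not tested.

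Elavl4, which encodes the neuronal RNA-binding protein HuD, measured 2.48, 4.93, 2.13, 2.50 and 0.947 CPM in CD mice and 4.99, 3.02, 3.31, 1.76 and 2.45 CPM in TDD mice. In CD+ABX mice it measured 3.13, 3.24, 2.72, 3.33 and 1.55 CPM, and in TDD+ABX mice 1.34, 1.96, 1.34, 3.42 and 3.30 CPM. All groups overlapped, and CD mouse 2 and TDD mouse 1 were the highest of their groups. Elavl4 differed by 0.26 with diet in SPF mice (95% interval -0.52 to 1.04, and 0.026 to 0.621 with 1 mouse left out) and by -0.45 with antibiotics on TDD (-1.23 to 0.33), and no comparison gave an adjusted p under 0.05. With the smooth muscle covariate the interval narrowed, and the diet difference in SPF mice was 0.35 with an edgeR adjusted p of 0.0478, where 17.6% of all genes had an adjusted p under 0.05. Uchl1, a ubiquitin hydrolase abundant in neurons, ranged from 2.53 to 10.5 CPM in CD, 3.58 to 9.73 in TDD, 4.47 to 6.86 in CD+ABX and 3.0 to 7.58 in TDD+ABX mice. Its 4 differences lay between -0.38 and 0.17 (95% interval of the latter, for diet in SPF mice, -0.51 to 0.84), and none passed. The TPM of Uchl1 came mainly from Uchl1-201, with 43.8% on average, and Uchl1-202, with 44.6% to 54.0% on average in the 4 groups. Uchl1-201 is annotated as protein coding and Uchl1-202 as a retained intron.

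The glial genes were sparse. Sox10, the transcription factor that keeps glial identity, measured 0.673 to 2.58 CPM in CD and 0.550 to 1.96 CPM in TDD mice. It measured 0.961 to 1.68 CPM in CD+ABX and 0.723 to 1.99 CPM in TDD+ABX mice. S100b, a calcium-binding protein of mature glia, measured 0.421 to 1.77 CPM in CD and 0.660 to 1.48 CPM in TDD mice, and 0.671 to 1.36 CPM in CD+ABX and 0.269 to 1.43 CPM in TDD+ABX mice. For both genes every group overlapped every other. The Sox10 differences lay between -0.18 and 0.17 and those of S100b between -0.49 and 0.15, none with an adjusted p under 0.05. With 13 to 111 counts per library behind these 2 genes, the intervals were wide: for S100b with antibiotics on TDD the 95% interval was -1.28 to 0.30, and for Sox10 it was -0.94 to 0.57.

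Taking the 8 genes by comparison, diet in SPF mice gave 0 members with an adjusted p under 0.05 (by edgeR, and by DESeq2, limma-voom and limma on TPM), 0 with an unadjusted p under 0.05 and 7 of 8 with a positive difference, a median of 0.14 beside 0.014 for all genes. In that comparison 14.4% of all genes had an adjusted p under 0.05 and 1.83% were called. Diet in ABX mice gave 0 members by the same tools, 1 of them with an unadjusted p under 0.05, and all 8 differences were negative, with a median of -0.33 beside -0.0030 for all genes. The 14 smooth muscle genes were all negative there too, also with a median of -0.33, and none passed. There 1.64% of all genes had an adjusted p under 0.05 and 0.307% were called. Antibiotics on CD gave 6 positive and 2 negative differences with a median of 0.08, and antibiotics on TDD 1 positive and 7 negative with a median of -0.41, beside medians of -0.0048 and -0.028 for all genes. Apart from Vip with antibiotics on CD, no member had groups that did not overlap, where 9.58% of all genes did so for diet in SPF mice, 4.78% for diet in ABX mice and 11.0% for antibiotics on TDD. The directions of members with small differences depended on the smooth muscle covariate, which turned the diet difference in ABX mice positive for Elavl4, Uchl1, Vip, Nos1 and Sox10. The test of the difference between the diet effects in SPF and ABX mice gave edgeR adjusted p of at least 0.5 for all 8 members, 1 of them (Ret) with an unadjusted p under 0.05, and 0.0368% of all genes passed it, 0.0245% with at least 2-fold.

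**Figure D2:**
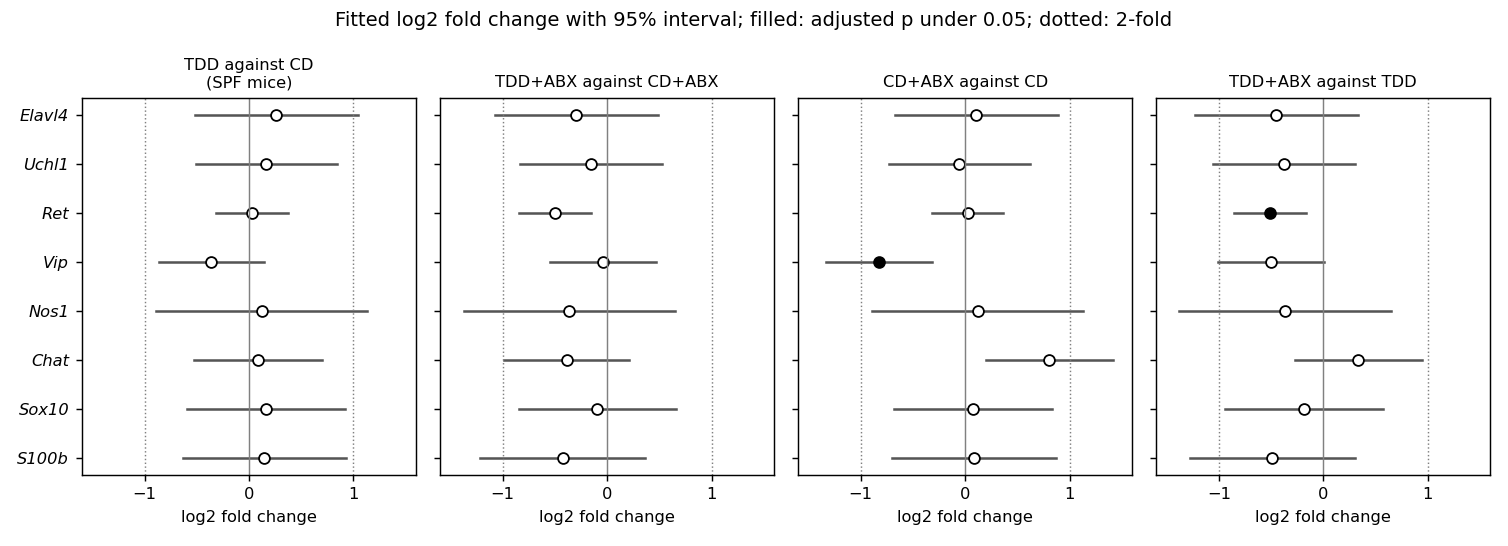
Fitted log2 fold changes of the 8 genes in the 4 group comparisons, with 95% intervals as lines; filled points have an edgeR adjusted p under 0.05, and dotted lines mark a 2-fold change. Vip with antibiotics on CD (-0.83) and Ret with antibiotics on TDD (-0.51) are the 2 filled points, and the Nos1 intervals are the widest.

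Within a group, 7 of the 8 genes went up and down together from mouse to mouse. After each group's mean was subtracted from the log2 CPM, the 21 pairs without Chat had Pearson r between 0.733 and 0.963 over 20 mice, with a median of 0.818, and all 21 had a permutation p adjusted over 36 correlations of at most 0.0037 (two-sided, mice permuted within groups). The ranks gave the same picture, with adjusted permutation p of at most 0.0017 for Spearman's rho. Elavl4 and Uchl1, both made by all neurons, had r = 0.940 and rho = 0.829. Without the 2 mice farthest from the median the lowest r of the 21 pairs was 0.621. Each pair was also positive within each group of 5, the lowest values being 0.703 in CD, 0.567 in TDD, 0.194 in CD+ABX and 0.7 in TDD+ABX mice.

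Chat followed the other genes least. Its 7 correlations ran from 0.444 with S100b to 0.598 with Sox10, 6 of them with an adjusted permutation p under 0.05, but none with one under 0.05 for Spearman's rho. Taken group by group, a look added after the data were seen, the 7 values were unlike each other in sign. Within CD mice they ran from 0.625 to 0.835 and within TDD mice from 0.711 to 0.98, all positive. Within CD+ABX mice they ran from -0.373 with Ret to -0.051 with Nos1, all negative, and within TDD+ABX mice from -0.337 to 0.282. With 5 mice a group these are descriptions, and the difference between groups was not tested. Without CD mouse 2, 21 of the 28 pairs passed in all, against 27 with it. Chat and S100b had rho = 0.409 (permutation p = 0.094), and r was 0.322 without the 2 farthest mice.

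**Figure D3:**
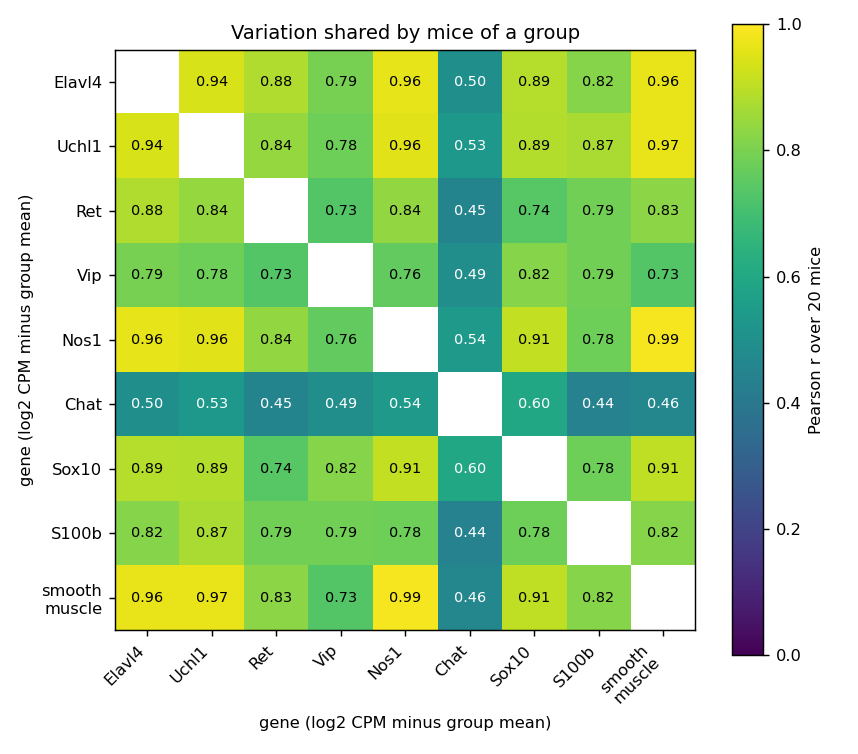
Pearson r over 20 mice between the 8 genes, and between each gene and the mean of 14 smooth muscle genes, after subtraction of group means from log2 CPM; the colour scale runs from 0 to 1 and each cell prints its r. The row and column of Chat, 0.44 to 0.60 against the other 7 genes, stand out from the rest, which lie at 0.73 or above.

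The shared variation ran along the level of smooth muscle genes in the tissue piece. Against the mean of 14 smooth muscle genes such as Myh11 and Flna, r was 0.986 for Nos1 (rho = 0.898), 0.966 for Uchl1 (rho = 0.923) and 0.965 for Elavl4 (rho = 0.901). It was 0.906 for Sox10 (rho = 0.881), 0.827 for Ret (rho = 0.877) and 0.817 for S100b (rho = 0.776). The permutation p of these 6, adjusted over 36 correlations, was at most 0.00074. Vip was more loosely tied, with r = 0.733 (rho = 0.671, adjusted permutation p = 0.0056), and Chat did not pass, with r = 0.464 (rho = 0.268, adjusted permutation p = 0.052). Without the 2 mice farthest from the median in smooth muscle, r was 0.980 for Nos1, 0.757 for Vip and 0.236 for Chat.

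The mice were not evenly spread in the level of smooth muscle genes: 5 of 20 lay more than 0.5 log2 units below their group mean. In the other 15 mice, an analysis chosen after the data were seen, 7 of the 8 genes still correlated with smooth muscle at an adjusted permutation p under 0.05, with r of 0.943 for Nos1 (adjusted permutation p = 0.02), 0.776 for Vip (0.042) and 0.252 for Chat (0.47). The 21 pairs without Chat kept a positive r in those 15 mice, between 0.566 and 0.934, and 20 of them passed. The 5 mice left are too few for a correlation among themselves.

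**Figure D4:**
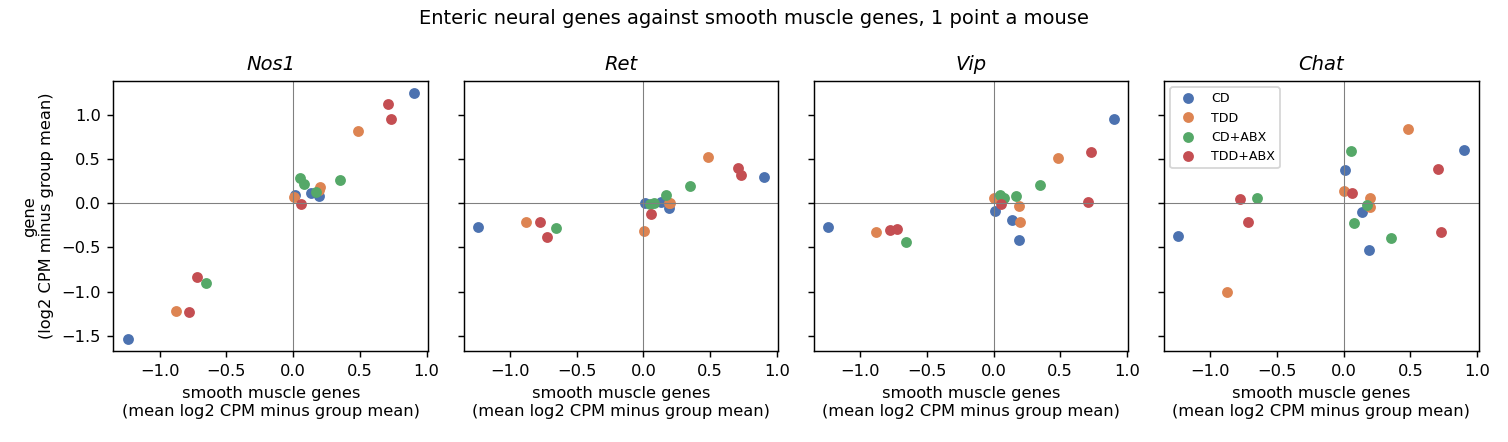
Log2 CPM of Nos1, Ret, Vip and Chat minus the group mean (vertical) against the mean log2 CPM of 14 smooth muscle genes minus its group mean (horizontal), 1 point a mouse, coloured by group. Nos1 follows smooth muscle closely (r = 0.986), Ret and Vip with a flatter slope (0.827 and 0.733), and Chat loosely (0.464).

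Over the 20 mice without centring, the genes most like each member among 14048 genes with a mean of at least 1 CPM were found by Pearson r of log2 CPM, as a description. Elavl4 was most like Dtna (0.978) and Nap1l5 (0.974), Uchl1 most like Etv1 (0.980) and Pirt (0.979), and Nos1 most like Atp2b4 (0.984) and Fam129a (0.982). The glial gene Sox10 was most like the neuronal gene Elavl3 (0.948) and Nfatc4 (0.939), and S100b most like Faim2 (0.913) and Eef1a2 (0.903). For Ret the best matches were Dysf (0.885) and Pbxip1 (0.879), and for Vip they were Casp12 (0.900) and Enpp5 (0.892). Chat had the weakest matches, Dph3 (0.790) and Txn2 (0.776).

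Other genes of the same pathways were taken from lists chosen by known function. Among the pan-neuronal genes, 19 of 20 were tested, Elavl4 and Uchl1 included, and 1 passed in any comparison, the sodium channel gene Scn3a. Among all genes, 14.4% passed for diet in SPF mice, 1.64% for diet in ABX mice, 12.6% for antibiotics on CD and 15.4% on TDD. Scn3a measured 1.83 to 3.14 CPM in CD and 2.75 to 3.53 CPM in TDD mice. It was higher on TDD in SPF mice by 0.50 (edgeR adjusted p = 0.0499), a call kept in 4 of 20 fits that left out 1 mouse. With antibiotics on TDD all 19 had negative differences, with a median of -0.32, and with antibiotics on CD 17 were positive, with a median of 0.12. Neither direction was carried by a gene that passed. Of the 14 smooth muscle genes, 11 had negative differences with antibiotics on TDD, with a median of -0.08, and 13 had positive ones with antibiotics on CD, with a median of 0.17. The part of muscle content in these directions was not tested.

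The transmitter list, of which 18 of 21 genes were tested, held 2 genes that fell by more than 2-fold with antibiotics on CD. Npy, the gene of neuropeptide Y, measured 0.505 to 1.93 CPM in CD and 0.207 to 0.409 CPM in CD+ABX mice, a difference of -1.6 (SE 0.388, edgeR adjusted p = 0.0107). It was also lower on TDD than on CD in SPF mice, at 0.255 to 0.552 CPM, by -1.33 (edgeR adjusted p = 0.0254), but by -0.87 with an adjusted p of 0.0748 without CD mouse 2, and the call was also lost without TDD mouse 3 or 5. Th, the rate-limiting enzyme of catecholamine synthesis, measured 0.758 to 0.909 CPM in CD and 0.264 to 0.471 CPM in CD+ABX mice, a difference of -1.18 (edgeR adjusted p = 0.00107). On TDD, Th was lower with antibiotics by -0.96 (edgeR adjusted p = 0.00348). Both genes are also used by sympathetic nerves, and their levels were at or under 2 CPM in all of these groups. In the comparison on CD, 3 of the 18 genes, Vip, Npy and Th, passed with a negative difference and none with a positive one. Of all genes, 7.37% passed there with a negative difference. The list as a whole did not fall: 11 of the 18 had a positive and 7 a negative difference, with a median of 0.084.

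The gene of the RET and endothelin list that differed most was Edn3, the endothelin that keeps neural crest progenitors dividing. It measured 18.6 to 28.1 CPM in CD and 51.1 to 93.4 CPM in CD+ABX mice, and rose by 1.56 (SE 0.185), or 2.96-fold, with antibiotics on CD (edgeR adjusted p = 8.64e-05). On TDD it measured 27.3 to 46.2 CPM without and 48.4 to 80.8 CPM with antibiotics, a difference of 0.97 (edgeR adjusted p = 0.00252). Diet gave 0.61 in SPF mice (edgeR adjusted p = 0.0315), and 5 of the 20 fits with 1 mouse left out lost that call (TDD mice 3 and 4, and CD mice 2, 3 and 5), with an adjusted p of up to 0.0946. Gdnf, the ligand of the RET complex, measured 1.30 to 2.65 CPM in CD and 1.98 to 3.48 CPM in TDD mice and was higher on TDD by 0.68 (edgeR adjusted p = 0.0219), while Ret itself differed by 0.03. Leaving out TDD mouse 3, TDD mouse 5 or CD mouse 3 took the adjusted p to at most 0.0646, above 0.05. No other gene of the 11 tested passed in these comparisons apart from Ret with antibiotics on TDD. Among all genes, 14.4% passed for diet in SPF mice, 1.64% for diet in ABX mice, 12.6% for antibiotics on CD and 15.4% on TDD.

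Of the 16 glial genes tested, 2 passed in any of the 4 comparisons, in which 14.4%, 1.64%, 12.6% and 15.4% of all genes passed. Cdh19, a cadherin of neural crest derived glia, measured 0.779 to 2.0 CPM in CD and 1.76 to 3.64 CPM in TDD mice and rose 2.0-fold on TDD (1.0 on the log2 scale, SE 0.277, edgeR adjusted p = 0.0203). The adjusted p rose above 0.05 without CD mouse 5 or TDD mouse 2, to at most 0.057, and without CD mouse 5 the difference was 0.83. Erbb3, a neuregulin receptor, measured 403 to 864 CPM in CD and 274 to 568 CPM in CD+ABX mice and was lower by -0.68 with antibiotics (edgeR adjusted p = 0.0427), a call kept in 7 of 20 fits that left out 1 mouse. At these levels Erbb3 exceeded every other gene of the glial list, and it is also made by epithelium. Sox10 and S100b did not follow either gene: in SPF mice their diet differences were 0.17 and 0.15, and with antibiotics on CD they were 0.07 and 0.09.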

How the data were processed

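RNA-seq of 20 mouse ileum samples was used, 5 mice in each of 4 groups that the labels name. The authors quantified transcripts with kallisto 0.44.0 against GRCm38 and deposited a gene-level table of estimated counts and, for each sample, transcript TPM. Estimated counts were rounded to whole numbers, no columns of other samples were present, and TPM were summed per gene through GENCODE M21, to which 111450 of 113193 transcripts matched. Genes that reached 0.5 CPM in 1 mouse or more were scaled by TMM and fitted over all 4 groups at once by edgeR 4.0.16 (R 4.3.3) with its quasi-likelihood test and robust estimation of the spread. The robust option was settled after the data were seen, to match an earlier processing of them. Genes were called at a Benjamini-Hochberg adjusted p under 0.05 and at least a 2-fold change. Intervals are 95% intervals of the fit.

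Correlations used log2 CPM with a prior count of 2, minus group means, and 100000 permutations of mice within groups (SciPy), the smallest p they can give being 1e-05; the random seed was changed once after the results were seen, which moved these p-values slightly. Alternatives were RLE scaling, DESeq2 1.42.0, limma-voom and limma 3.58.1 on log2(TPM + 1) and log2(TPM + 0.1), other filters, a smooth muscle covariate, a replicate block, the 2 groups alone and each mouse left out. The fit without the robust option, the covariate without CD mouse 2 and the correlations in 15 mice were added after the data were seen. The edgeR step was tested on simulated counts, and the DESeq2 and limma steps were not.

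The members and the gene lists were chosen with earlier results of these data known. All 8 members are named. From the neuronal, transmitter, RET and glial lists at most 4 other genes were named, those with the lowest p, from other lists those with the highest mean CPM, plus any gene called, and for each member the 2 genes most like it. The tuft cell genes and the acetylcholine transporters named beside Chat were chosen after their values were seen. The labels number the mice but do not say which shared a cage. The tests treated each mouse as independent, so a difference between cages cannot be told apart from a difference between groups. Kallisto shares reads among transcripts of a gene by estimation, so transcript shares of genes this sparse are uncertain.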

Additional observations from a re-analysis of the deposited data

Results flagged for a closer look

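In 5 of the 32 sets of 5 mice (8 genes in 4 groups), 1 mouse lay farther from the others than Dixon's 95% limit of 0.71 for the gap over the range allows, where chance gives about 1 in 20. Vip in CD mouse 2 was 25.7 CPM, with the next CD mouse at 12.5 CPM, and Sox10 in the same mouse was 2.58 CPM, with the next at 1.22 CPM. That mouse also had the highest smooth muscle sum of all 20, 4892 CPM. Vip in CD+ABX mouse 5 was 5.79 CPM, below the next at 8.25 CPM, and Nos1 in that mouse was 2.26 CPM, below the next at 4.65 CPM. Its smooth muscle sum, 2097 CPM, was the lowest of its group. Vip in TDD+ABX mouse 4 was 11.3 CPM, with the next at 7.61 CPM, and its smooth muscle sum of 4011 CPM was the highest of its group. The part of muscle content in these values was not tested.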

How the results depend on the processing

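No setting called a member at 2-fold. With no fold limit, 1 member passed with antibiotics on CD (Vip) and 1 on TDD (Ret). Vip lost its call with limma on log2(TPM + 1) and log2(TPM + 0.1) (adjusted p = 0.0591 and 0.056), with only the 2 groups compared (0.0696) and with the replicate block (-0.78, 0.0535), and kept it with DESeq2 (0.00781), RLE and limma-voom. Ret lost its call in the same fits (0.12, 0.114, 0.0988, and -0.49 with 0.0849 under the block) and with no filter on low counts (0.0609). Mouse numbers shared between groups did not pair mice: 5 of 30 same-number pairs had r over 0.1 (range -0.355 to 0.248), and 1 mouse correlated best with its own number. Correlated pairs numbered 25 with RLE, 27 with TPM and 20 in the 15 mice. DESeq2 added Chat with antibiotics on CD (adjusted p = 0.0403), which limma-voom (0.0572), the replicate block (0.13) and the other fits of all mice did not. With the muscle covariate, Nos1 with antibiotics on TDD gave -0.30 (edgeR adjusted p = 0.0488), where 17.3% of all genes were under 0.05. Without CD mouse 2 as well, 5 of 8 members passed there, where 21.1% of all genes did. They were Ret, Elavl4 (-0.34, edgeR adjusted p = 0.0442), Uchl1 (-0.28, 0.0498), Vip (-0.45, 0.0234) and Nos1 (-0.31, 0.0423). Signs turned for small differences. In SPF mice the diet difference of Ret was -0.00435 with limma-voom, -0.050 with log2(TPM + 1) and -0.069 with log2(TPM + 0.1), and that of Nos1 was -0.021 with log2(TPM + 1). In ABX mice the covariate gave Elavl4 0.085, Uchl1 0.152, Vip 0.164, Nos1 0.029 and Sox10 0.239, and without CD mouse 2 as well 0.065, 0.137, 0.107, 0.024 and 0.204. With antibiotics on CD, log2(TPM + 1) gave Elavl4 -0.011, Uchl1 0.057 and Nos1 -0.0042, log2(TPM + 0.1) and limma-voom gave Uchl1 0.078 and 0.077, and the covariate gave Elavl4 -0.070, Ret -0.086, Nos1 -0.0998, Sox10 -0.094 and S100b -0.053, with Ret -0.091 and Nos1 -0.093 also without CD mouse 2. The covariate interaction of Sox10 was 0.042. Leaving out 1 mouse gave, for diet in SPF mice, Vip -0.513 to -0.038, Uchl1 -0.038 to 0.466, Ret -0.128 to 0.105, Nos1 -0.125 to 0.539, Chat -0.178 to 0.268, Sox10 -0.0081 to 0.573 and S100b -0.049 to 0.506. For diet in ABX mice it gave Vip -0.216 to 0.031 and Sox10 -0.312 to 0.050. For antibiotics on CD it gave Elavl4 -0.107 to 0.473, Uchl1 -0.249 to 0.251, Ret -0.035 to 0.108, Nos1 -0.118 to 0.541, Sox10 -0.087 to 0.492 and S100b -0.098 to 0.453. The causes were not tested. Counts of 13 to 113 a mouse limit the precision for Chat, Sox10 and S100b.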

Other observations

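Fat and follicle genes differed between mice more than the neural genes did, without a call. The 7 fat genes summed to 18.3 to 137 CPM in CD, 21.1 to 111 CPM in TDD, 17.9 to 182 CPM in CD+ABX and 15.9 to 35.8 CPM in TDD+ABX mice. The 6 B cell and follicle genes summed to 5.18 to 94.7 CPM in CD and 3.57 to 8.03 CPM in CD+ABX mice. Genes of the interstitial cells of Cajal, the pacemaker cells of gut muscle, stayed between 54.2 and 114 CPM in sum, and none of the 6 passed in a group comparison. Of the 5 mesothelial genes, 1, Upk1b, passed, lower with antibiotics on TDD by -0.57 (edgeR adjusted p = 0.0174), where 15.4% of all genes passed. Enteroendocrine genes, which include neuropeptide genes of the epithelium, had negative differences with antibiotics on CD in 10 of 12 cases, and 4 passed as lower, where 7.37% of all genes did, among them Nts, the neurotensin gene, by -0.83 (edgeR adjusted p = 0.00173). All 6 T cell genes had negative differences with antibiotics on CD and 5 passed, Trac by -2.11 (edgeR adjusted p = 0.00172). In the tuft list, taken up after Chat's values were seen, r with Chat within groups was 0.443 over 20 mice (rho = 0.462, permutation p = 0.035, 0.28 adjusted over 8 genes) and 0.261 without the 2 farthest mice, so that it did not pass. Taken group by group, r was 0.768 in CD, -0.046 in TDD, 0.958 in CD+ABX and 0.499 in TDD+ABX mice. With 5 mice a group these values are descriptions.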
